A study of Mus musculus with 20 samples.

Results

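Mesothelial marker genes were measured in RNA from a pulldown of tagged adipocyte ribosomes from mouse epididymal adipose tissue (epiAT). The set was 10 genes chosen by name, Msln, Upk3b, Upk1b, Krt19, Krt8, Krt18, Wt1, Lrrn4, Muc16 and Gpm6a, and their rows were found by Ensembl identifier. Of these 10 genes, 9 had a row among the 46078 genes of the count table and Muc16 was not analysed here. All 9 were among the 21464 genes that passed the filter on low counts and were tested. None of the 9 was at 0 in any of the 20 libraries, and the lowest count was 8, for Krt8 and Krt18 in the same HHC mouse.

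The libraries were made by TRAP–seq, in which tagged ribosomes are captured and the RNA bound to them is sequenced, from AdipoERCre x NuTRAP mice on a background that the labels give as C576BL6. Each library was 1 mouse. All mice, controls included, carried both transgenes and received tamoxifen before the diets began, so that Cre under the adiponectin promoter switched on GFP-tagged ribosomes in adiponectin-expressing cells. The pulldown used GFP beads, and the labels call the captured cells adipocytes. In the short arm, C mice were 18 weeks old on chow (n = 3) and H mice were 18 weeks old after 12 weeks of high-fat diet (HFD, n = 3). Per the paper, chow was a low-fat chow during the HFD phase and a standard chow afterwards, for controls as well. CC_s mice were 26 weeks old on chow (n = 3), and HC mice were 26 weeks old after 12 weeks of HFD and 8 weeks of chow for weight loss (n = 3). In the long arm, CC_l mice were 31 weeks old on chow (n = 2), HH mice were 31 weeks old after 25 weeks of HFD (n = 2), CCC mice were 39 weeks old on chow (n = 2) and HHC mice were 39 weeks old after 25 weeks of HFD and 8 weeks of chow (n = 2). The sample codes of the arms have different prefixes, whose meaning the labels do not give, and every HFD or weight-loss group was compared with a chow control of its own age and arm. Library totals ran from 10710277 to 36738954 counts, at which 3 counts corresponded to 0.0817 to 0.280 CPM, the unit of level used here (counts scaled to library size).

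The mesothelium is the flat cell layer that covers abdominal organs and visceral fat pads, epiAT included. It has features of epithelium, such as keratin filaments and an apical surface with microvilli, and shares a mesodermal origin with the tissue below it. Msln encodes mesothelin, a surface glycoprotein that binds the mucin encoded by Muc16. Upk3b and Upk1b encode uroplakins, membrane proteins best known from the urothelium, and Lrrn4 and Gpm6a encode membrane proteins that are also made by neurons. Wt1 encodes a zinc finger transcription factor of mesothelium, kidney podocytes and Sertoli cells. Krt8, Krt18 and Krt19 encode keratins of simple epithelia, in which the type II keratin of Krt8 pairs with the type I keratins of Krt18 or Krt19, so these 3 genes are active in many epithelia besides the mesothelium. In these bulk libraries, fewer cells of a type and less RNA per cell cannot be told apart. Whether the RNA of these genes was on tagged ribosomes or came along in the pulldown was not tested.

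Promoters are shown for the pairs of genes whose levels were closest across mice, Upk3b with Lrrn4 and Krt8 with Krt18. Krt8 and Krt18 are neighbours on chromosome 15, with 23697 bases between them. Of the 10 genes, 6 had an entry in the promoter table, which gives 250 bases before and 50 bases after the RefSeq start on GRCm38.p6. The 4 printed are chr5:136038246-136038545 (Upk3b, plus strand), chr2:132880813-132881112 (Lrrn4, minus strand), chr15:102004293-102004592 (Krt8, minus strand) and chr15:102027966-102028265 (Krt18, plus strand), each 5′ to 3′ along its gene. Capitals mark a TEAD motif (GGAATG, on either strand) in Upk3b and Lrrn4, and a TATA motif (TATAAA, on either strand, 2 overlapping matches that span the annotated start) in Krt8.
Upk3b: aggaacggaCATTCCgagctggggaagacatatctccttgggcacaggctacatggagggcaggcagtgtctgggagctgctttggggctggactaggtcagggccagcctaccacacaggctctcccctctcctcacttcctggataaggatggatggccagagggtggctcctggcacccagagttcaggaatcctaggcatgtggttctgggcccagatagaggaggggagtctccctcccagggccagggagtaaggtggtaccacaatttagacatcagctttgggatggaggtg
Lrrn4: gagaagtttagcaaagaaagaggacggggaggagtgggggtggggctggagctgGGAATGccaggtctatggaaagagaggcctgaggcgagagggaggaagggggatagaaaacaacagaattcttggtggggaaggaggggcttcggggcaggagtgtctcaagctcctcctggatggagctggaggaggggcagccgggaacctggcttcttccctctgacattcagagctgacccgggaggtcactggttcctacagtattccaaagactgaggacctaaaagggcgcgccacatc
Krt8: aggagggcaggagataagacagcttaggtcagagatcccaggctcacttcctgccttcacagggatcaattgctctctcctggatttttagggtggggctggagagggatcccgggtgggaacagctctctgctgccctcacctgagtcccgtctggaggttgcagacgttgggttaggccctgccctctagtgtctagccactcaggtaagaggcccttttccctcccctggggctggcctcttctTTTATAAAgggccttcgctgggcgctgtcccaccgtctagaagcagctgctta
Krt18: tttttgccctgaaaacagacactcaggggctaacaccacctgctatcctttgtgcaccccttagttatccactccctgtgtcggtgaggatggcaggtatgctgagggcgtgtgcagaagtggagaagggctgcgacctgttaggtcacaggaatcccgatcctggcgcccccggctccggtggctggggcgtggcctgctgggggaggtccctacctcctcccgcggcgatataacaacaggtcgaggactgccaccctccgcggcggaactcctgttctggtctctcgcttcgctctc
GGAATG was found in 14.7% of the 32851 promoters of the table and TATAAA in 13.6%. The other motifs searched on both strands, AP-1 (TGANTCA), the GC box (GGGCGG) and a motif of EGR factors and WT1 (GCGNGGGNG), had no match in these 4 windows and were found in 7.81%, 35.7% and 12.3% of all promoters. The promoters of the Upk3b and Lrrn4 pair held a GGAATG match each, and those of the Krt8 and Krt18 pair held none. The pairs were picked by their levels in these data, and matches are given for these 4 windows only. Whether the motif has a part in the likeness of levels was not tested.

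Each gene was present at a low level beside the adipocyte genes. Per kilobase of exon, mean levels over the 20 mice ran from 2.59 CPM per kb for Wt1 to 9.71 CPM per kb for Upk3b, against a median of 1.89 CPM per kb over the tested genes. On the same scale Adipoq (adiponectin) stood at 2361 and Fabp4 (a fatty acid binding protein of adipocytes) at 9165 CPM per kb. The order per kilobase was Upk3b, Krt18, Gpm6a, Upk1b, Krt19, Msln, Krt8, Lrrn4 and Wt1, which placed Upk3b at percentile 80.1 of the tested genes. The plot of levels by mouse shows that the spread within some groups was as large as that between groups.

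**Figure D1:**
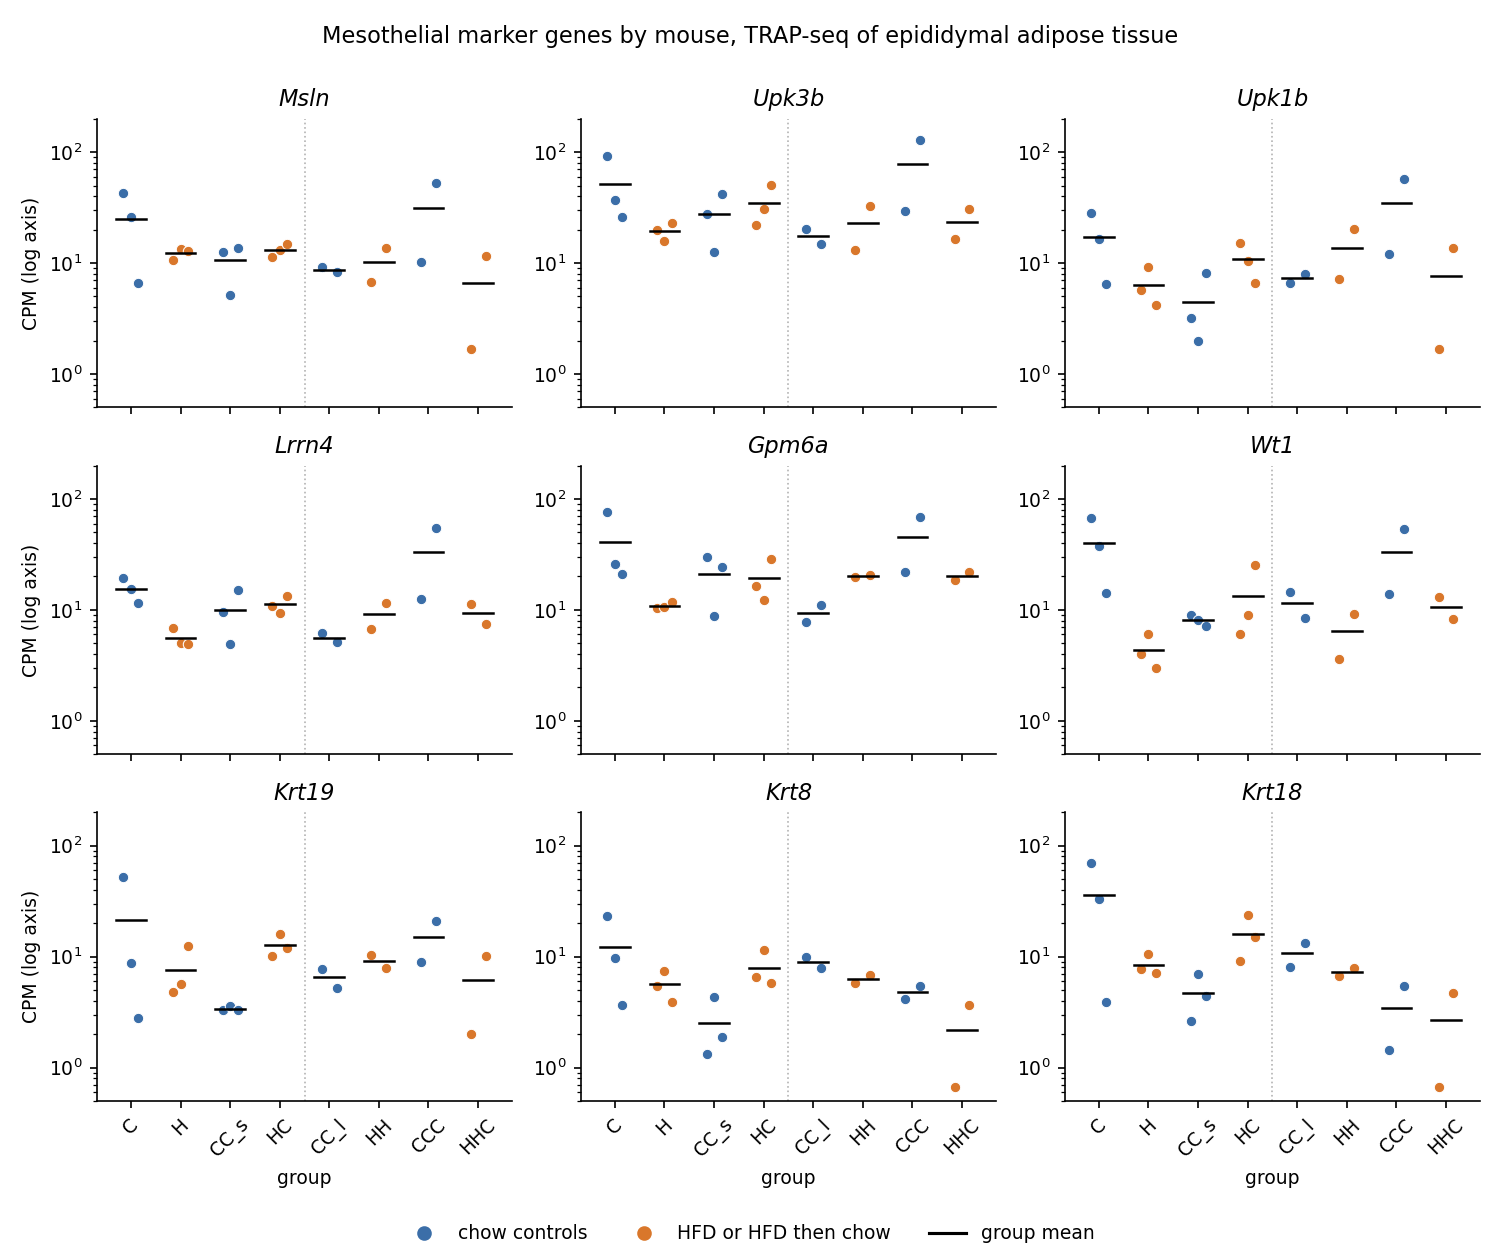
CPM on a log axis of each gene in each of the 20 mice, by group, with chow controls in blue, groups with HFD or with HFD and then chow in orange, the group mean as a black line and a dotted line between the short and the long arm. The highest points lie in C or CCC for each of the 9 genes, and the lowest points of Msln, Upk1b, Krt19, Krt8 and Krt18 belong to an HHC mouse.

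A single mouse in C and a single mouse in CCC held the highest value of every gene. C replicate 1 was highest for Krt18 with 70.1 CPM, Krt19 with 52.4 CPM, Krt8 with 23.2 CPM, Wt1 with 67.8 CPM and Gpm6a with 75.8 CPM. CCC replicate 2 was highest for Upk3b with 128 CPM, Msln with 52.9 CPM, Upk1b with 56.8 CPM and Lrrn4 with 54.3 CPM. The highest value exceeded the median over 20 mice by 3.77 times for Gpm6a to 9.49 times for Krt18. HHC replicate 1 was lowest for Msln and Upk1b (both 1.68 CPM), Krt19 (2.01 CPM), Krt8 and Krt18 (both 0.670 CPM). Ordered by mean level, neighbouring groups overlapped in 7 of 7 steps for 7 of the genes and in 6 of 7 steps for Lrrn4 and Gpm6a.

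The libraries that stood highest also differed in other RNA. C replicates 1 and 2, HC replicate 3 and CCC replicate 2 had the highest sums of the nuclear-retained RNA list (Malat1, Neat1, Meg3 and Kcnq1ot1), 20373 to 37573 CPM against 2786 to 12398 CPM in the other 16 libraries. Their adipocyte list sums were 34530, 30163, 15671 and 29931 CPM, while the other 16 libraries ran from 29237 to 141340 CPM. The same 4 libraries had the 4 highest mean z-scores of the 9 genes. Whether this RNA had a part in the differences below was not tested. For the comparisons that hold any of these 4 libraries, values without them are therefore given, with the reservation that C and CCC then hold 1 mouse each.

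In H against C, after 12 weeks of HFD, all 9 log2 fold changes were below 0, with a median of -1.46 beside -0.15 over all tested genes. Wt1, Gpm6a and Lrrn4 passed both thresholds (a log2 fold change of 1 or more in size and a nominal p under 0.01), all 3 downward, as 2.92% of all tested genes did. Wt1 was also past a Benjamini-Hochberg adjusted p of 0.05 over all tested genes, as 2.12% of genes were in either direction. The levels of Wt1, Gpm6a, Lrrn4 and Upk3b did not overlap between the groups, with H lower, which was so for 10.5% of all tested genes.

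Wt1 was at 67.8, 37.7 and 14.1 CPM in C and at 4.03, 6.09 and 2.97 CPM in H. Every H mouse was below every C mouse, and the fold change was -3.19 (SE 0.67, edgeR quasi-likelihood adjusted p = 0.0198). Gpm6a was at 75.8, 25.8 and 20.9 CPM in C and at 10.3, 10.6 and 11.7 CPM in H. The SD was 0.717 CPM in H and 30.4 CPM in C, where replicate 1 stood far above the others, and the fold change was -1.90 (SE 0.54, adjusted p = 0.0765). Lrrn4 was at 19.3, 15.4 and 11.6 CPM in C and at 6.92, 5.00 and 4.89 CPM in H, a fold change of -1.46 (SE 0.50, adjusted p = 0.141). In Lrrn4 no single C mouse stood apart, and the SD of C was 3.84 CPM.

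Upk3b was at 92.5, 37.0 and 25.9 CPM in C and at 19.8, 15.6 and 22.7 CPM in H, with a fold change of -1.42 (SE 0.59, adjusted p = 0.229). Its groups did not overlap, but it did not pass the thresholds. Msln was at 42.5, 26.0 and 6.63 CPM in C and at 10.6, 13.5 and 12.9 CPM in H, so that C replicate 3 lay below every H mouse. Upk1b ran from 6.45 to 28.3 CPM in C and from 4.22 to 9.24 CPM in H.

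For the keratins the C mice differed widely among themselves. Krt18 was at 70.1, 33.4 and 3.94 CPM in C and at 7.68, 10.6 and 7.10 CPM in H, a fold change of -2.08 (SE 0.80, adjusted p = 0.192). Krt19 ran from 2.78 to 52.4 CPM in C and from 4.79 to 12.5 CPM in H, and Krt8 from 3.67 to 23.2 CPM in C and from 3.93 to 7.50 CPM in H. C replicate 3 was below all H mice for each of the 3 keratins. For Krt19, C replicate 2 at 8.73 CPM lay within the range of H. The fold change of Krt19 was -1.85 without C replicate 2 but 0.43 without C replicate 1. Without C replicate 1, Krt8 was at -0.23 and Krt18 at -1.14.

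Beside these genes, the general epithelial list (10 genes such as Epcam and Cdh1) summed to 586, 202 and 35.9 CPM in C and to 38.3, 69.0 and 39.6 CPM in H, with 1 of 10 genes past the thresholds, Prom1, downward. Its median fold change was -2.02, lower than that of the 9 genes. Of the 13 further mesothelial genes tested, 1 passed, Nkain4, at -1.57 (SE 0.54, adjusted p = 0.144), and their median fold change was -0.94. The nuclear-retained list summed to 4885 to 37573 CPM in C and to 4488 to 5536 CPM in H. Its median fold change was -1.91, with 1 of 4 genes past the thresholds, Neat1, downward. The macrophage list summed to 214 to 366 CPM in C and 526 to 3079 CPM in H, with 6 of 10 genes past the thresholds upward. The endothelial list, of which 6 of 10 genes passed upward, summed to 361 to 999 CPM in C and 2328 to 2681 CPM in H. Of the genes of adipocyte progenitors and fibroblasts, 5 of 10 passed upward (Col1a1, Col1a2, Col3a1, Lum and Cd34). Of the epididymal epithelium genes, 6 of 13 tested passed upward, and their sums reached 1854 CPM in C replicate 1 and 1936 CPM in H replicate 2. The spermatid list summed to 124.9, 23.5 and 4.48 CPM in C and to 0.760 to 6.33 CPM in H. Of its 8 genes 0 passed, and its median fold change was -4.28. The part of each of these in the differences was not tested. Without C replicate 1, 1 gene stayed past the thresholds, Wt1 at -2.55, and the fold change of Krt19 was 0.43. Leaving out H replicate 1 or H replicate 2 also left 1 gene past them. Without the 4 libraries named above, no gene passed, with Wt1 at -1.57, Gpm6a at -0.82, Lrrn4 at -0.94 and Upk3b at -0.30, and the other 5 genes were above 0.

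**Figure D2:**
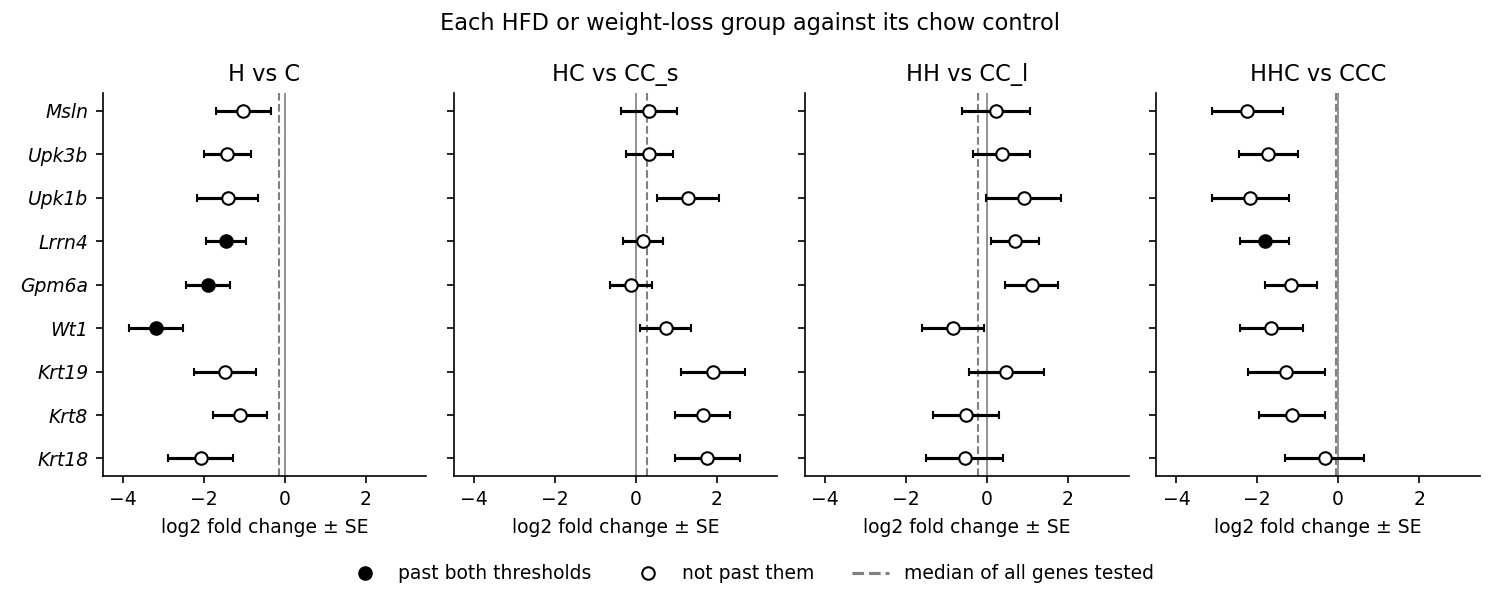
Log2 fold change with its standard error for each of the 9 genes (rows) in the 4 comparisons with chow controls (panels), from edgeR. Filled points passed both thresholds and the dashed line is the median of all tested genes. All 9 points lie below 0 in H against C and in HHC against CCC, and 8 of 9 lie above 0 in HC against CC_s.

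In HC against CC_s, after weight loss in the short arm, 8 of 9 log2 fold changes were above 0, with a median of 0.73 beside 0.27 over all tested genes. By edgeR 0 of the 9 genes passed the thresholds, which 1.74% of all tested genes did, and DESeq2 also called 0. The unadjusted p was under 0.05 for 3 genes, the 3 keratins, whose levels were higher in every HC mouse than in every CC_s mouse, as for 8.0% of all tested genes. Krt18 was at 9.14, 23.9 and 15.0 CPM in HC and at 2.65, 6.96 and 4.44 CPM in CC_s, with a fold change of 1.77 (SE 0.80, adjusted p = 0.569).

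Krt19 was at 10.2, 16.0 and 11.9 CPM in HC and at 3.31, 3.60 and 3.30 CPM in CC_s, with a fold change of 1.90 (SE 0.79, adjusted p = 0.551). Krt8 was at 6.53, 11.6 and 5.84 CPM in HC and at 1.32, 4.34 and 1.90 CPM in CC_s, a fold change of 1.65 (SE 0.68, adjusted p = 0.546). The 3 keratins thus shared the order of groups but none was past the adjusted threshold, which 0 of the 21464 tested genes passed. The general epithelial list summed to 22.3 to 61.1 CPM in HC and 11.1 to 39.1 CPM in CC_s, with 0 of 10 genes past the thresholds and a median fold change of 1.40. The macrophage list summed to 481 to 1252 CPM in HC and 184 to 238 CPM in CC_s, with 6 of 10 genes past the thresholds upward, among them Adgre1, Cd68 and Csf1r. Of the spermatid genes, 5 of 8 passed upward, with sums of 3.54 to 533.8 CPM in HC and 0.127 to 5.69 CPM in CC_s. The part of these lists in the differences was not tested.

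For the 6 other genes the HC and CC_s mice overlapped. Gpm6a was at 16.6, 12.4 and 28.8 CPM in HC and at 30.04, 8.85 and 24.2 CPM in CC_s, a fold change of -0.13 (SE 0.53). Upk3b ran from 22.1 to 50.7 CPM in HC and from 12.6 to 41.7 CPM in CC_s, with a fold change of 0.34 (SE 0.58). Wt1 was at 6.11, 8.91 and 25.2 CPM in HC and at 9.0, 8.03 and 7.10 CPM in CC_s, and its highest value, in HC replicate 3, came from a library high in nuclear-retained RNA and in spermatid genes (533.8 CPM in sum). Without that library and the other 3 named above, Wt1 was at -0.15, Upk3b at -0.11 and Lrrn4 at -0.04, Krt18 at 1.79, Krt8 at 1.80 and Krt19 at 1.89, and Krt19 passed the thresholds.

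In HH against CC_l, after 25 weeks of HFD, 6 of the 9 fold changes were above 0 and 3 below, with a median of 0.36 beside -0.23 over all tested genes. By edgeR 0 of the 9 genes passed the thresholds, while 6.79% of all tested genes did, and 0 had an unadjusted p under 0.05. DESeq2 also called 0. Gpm6a was at 19.7 and 20.5 CPM in HH and at 7.73 and 11 CPM in CC_l, the largest of the 9 fold changes upward at 1.10 (SE 0.65, adjusted p = 0.386). Lrrn4 was at 6.75 and 11.4 CPM in HH and at 6.14 and 5.11 CPM in CC_l, a fold change of 0.69 (SE 0.60). Wt1 was at 3.65 and 9.21 CPM in HH and at 14.4 and 8.51 CPM in CC_l, the lowest fold change at -0.83 (SE 0.76). With 2 mice a group, 55.2% of all tested genes had groups that did not overlap, and 5 of the 9 genes did not (Gpm6a, Lrrn4 and Krt19 higher in HH, Krt8 and Krt18 lower).

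The lists for other cells moved in the same comparison. All 10 macrophage genes passed the thresholds upward, with sums of 3032 and 4018 CPM in HH and 194 and 359 CPM in CC_l, as did 8 of 10 genes of adipocyte progenitors and fibroblasts and 9 of 10 endothelial genes. Among the further mesothelial genes, Cldn15 (a claudin of tight junctions) passed upward at 2.40 (SE 0.69, adjusted p = 0.0803). The nuclear-retained list summed to 3712 and 3913 CPM in HH and 3342 and 10147 CPM in CC_l, and none of the 4 libraries high in it took part. CC_l replicate 1 held 3491 CPM of spermatid genes in sum.

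In HHC against CCC, after weight loss in the long arm, all 9 fold changes were below 0, with a median of -1.65 beside -0.06 over all tested genes. Only Lrrn4 passed the thresholds, downward, as 2.67% of all tested genes did. It was at 11.4 and 7.54 CPM in HHC and at 12.5 and 54.3 CPM in CCC, a fold change of -1.82 (SE 0.61, adjusted p = 0.304). CCC replicate 1 lay close to the higher HHC mouse, and CCC replicate 2 stood far above both.

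CCC replicate 2 also stood above both HHC mice for Msln, Upk3b and Wt1. Msln was at 1.68 and 11.5 CPM in HHC and at 10.3 and 52.9 CPM in CCC, with a fold change of -2.25 (SE 0.88, adjusted p = 0.368). Upk3b was at 16.6 and 30.8 CPM in HHC and at 29.7 and 128 CPM in CCC, a fold change of -1.73 (SE 0.73, adjusted p = 0.407). Wt1 was at 13.1 and 8.29 CPM in HHC and at 13.9 and 53.0 CPM in CCC, a fold change of -1.65 (SE 0.77, adjusted p = 0.460). In Upk3b the higher HHC mouse exceeded CCC replicate 1, and in Wt1 the groups did not overlap, as 4 of the 9 genes did not, all with HHC lower, against 20.3% of all tested genes. Without CCC replicate 2 no gene passed, and the fold changes were -0.40 for Lrrn4, -0.64 for Msln, -0.33 for Upk3b, -0.39 for Wt1 and 0.93 for Krt18. Without the 4 libraries named above no gene passed either, with a median of -0.32 and fold changes of -0.32 for Lrrn4, -0.57 for Msln, -0.25 for Upk3b, -0.30 for Wt1 and 1.00 for Krt18.

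Krt18 had the smallest of the 9 fold changes in HHC. It was at 1.43 and 5.49 CPM in CCC and at 0.670 and 4.74 CPM in HHC, a fold change of -0.34 (SE 0.97). Krt8 was at 4.18 and 5.49 CPM in CCC and at 0.670 and 3.66 CPM in HHC. CCC replicate 2, the highest of 20 mice for Upk3b, was thus near the middle for Krt8. The general epithelial list summed to 4.2 and 7.6 CPM in CCC and 1.5 and 12.9 CPM in HHC, with Cdh1 at 0 in CCC replicate 2 and Epcam at 0 in HHC replicate 1. The further mesothelial list summed to 144 and 426 CPM in CCC and 155 and 147.5 CPM in HHC. Of its genes, Nkain4 (-2.53, SE 0.68, adjusted p = 0.230), Prg4 (-3.17, SE 0.90, adjusted p = 0.259) and Bnc1 (-2.61, SE 0.89, adjusted p = 0.311) passed the thresholds downward. Nkain4 encodes a protein that interacts with the sodium pump, Prg4 encodes the lubricating proteoglycan lubricin and Bnc1 encodes a zinc finger protein. The endothelial list summed to 113 and 168 CPM in HHC and 372 and 845 CPM in CCC, with all 10 fold changes below 0 and 3 genes past the thresholds downward, Vwf, Tek and Tie1. The nuclear-retained list summed to 12398 and 3407 CPM in HHC and 7378 and 28074 CPM in CCC, and of its 4 genes Kcnq1ot1 passed downward at -3.37 (SE 1.03, adjusted p = 0.276). The part of these lists in the differences was not tested.

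The chow controls differed among themselves between ages within an arm. Per the paper, controls ate a low-fat chow in the HFD phase and another chow in the weight-loss phase. In CC_s against C and in CCC against CC_l, age and diet therefore cannot be told apart. In CC_s against C, at 26 and 18 weeks, all 9 fold changes were below 0 with a median of -1.95 beside -0.17 over all tested genes, and Krt18 (-2.93, SE 0.83), Krt19 (-2.64, SE 0.81), Krt8 (-2.26, SE 0.69) and Wt1 (-2.31, SE 0.65) passed the thresholds downward, each at an adjusted p of 0.393. Of all tested genes 1.85% passed downward. The CC_s mice were at 9.0, 8.03 and 7.10 CPM for Wt1, all below the lowest C mouse at 14.1 CPM. Such an order was found for 7.38% of all tested genes. For the keratins CC_s and C overlapped through C replicate 3. Of the general epithelial list 5 of 10 genes passed downward in the same comparison. Without C replicate 1, or without the 4 libraries named above, no gene passed.

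In CCC against CC_l, at 39 and 31 weeks, 7 of 9 fold changes were above 0 with a median of 1.85 beside -0.05 over all tested genes. Lrrn4 (2.57, SE 0.63, adjusted p = 0.311), Gpm6a (2.27, SE 0.67, adjusted p = 0.344) and Upk3b (2.15, SE 0.74, adjusted p = 0.362) passed the thresholds upward, as 0.755% of all tested genes did. Lrrn4 was at 12.5 and 54.3 CPM in CCC and at 6.14 and 5.11 CPM in CC_l, and both CCC mice lay above both CC_l mice. That was so for 6 of the 9 genes and for 17.6% of all tested genes. Krt8 and Krt18 were lower in both CCC mice than in both CC_l mice, as were 17.4% of all tested genes. Their fold changes were -0.90 (SE 0.81) and -1.63 (SE 0.98). Without CCC replicate 2, or without the 4 libraries named above, no gene passed. These control mice are the same as in the comparisons above, in which C and CCC were the groups with the higher levels.

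Differences between effects were tested as interactions. By edgeR 0 of the 9 genes were past an adjusted p of 0.05 in any of the 3 interactions. Of all tested genes, 0 were past it for H minus HC and for H minus HH, and 0.815% for HH minus HHC. For the effect in H minus that in HC, 8 of 9 genes had an unadjusted p under 0.05, as 11.8% of all tested genes did, and all 9 differences were below 0. The lowest difference was that of Wt1 at -3.92 (SE 0.90, adjusted p = 0.325), followed by Krt18 at -3.85 (SE 1.13, adjusted p = 0.325). For the effect in HH minus that in HHC, 3 genes had an unadjusted p under 0.05 against 15.5% of all tested genes, with Lrrn4 at 2.51 (SE 0.86, adjusted p = 0.166). For the effect in H minus that in HH, 3 genes had an unadjusted p under 0.05 against 5.79% of all tested genes, with Gpm6a at -3.01 (SE 0.85, adjusted p = 0.848). In the last of these, length of HFD, age and arm cannot be told apart. The likelihood ratio test and DESeq2 each placed 2 genes past the adjusted threshold for H minus HC. The share of all tested genes past it with these 2 methods is not given here. In H against C they placed 1300 and 2026 of all tested genes past it, against 455 in the main fit.

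Across the 20 mice some of the genes ran close together and others did not. Pearson r of log2 CPM ranged from 0.021 to 0.876 over the 36 pairs, with a median of 0.605, and 25 pairs had an adjusted permutation p under 0.05 over the 36 pairs. For Spearman's rho 18 pairs did. The points share libraries and their scaling. Among the 6 genes that are not keratins, r was 0.517 to 0.876 (median 0.718, 15 pairs). Among the 3 keratins it was 0.655 to 0.874. Between keratins and the other genes it was 0.021 to 0.742 (median 0.405, 18 pairs).

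The closest pairs were Upk3b with Lrrn4 (r = 0.876, permutation adjusted p = 0.00024, rho = 0.824, permutation adjusted p = 0.00027) and Krt8 with Krt18 (r = 0.874, permutation adjusted p = 0.00018, rho = 0.899, permutation adjusted p = 0.00027). Without the 2 mice farthest from the median of the first gene, r was 0.756 and 0.736. Within the short arm it was 0.867 and 0.938, within the long arm 0.904 and 0.879, and after subtraction of group means 0.804 and 0.890. Lrrn4 with Gpm6a followed at r = 0.859 (rho = 0.845, permutation adjusted p = 0.00018 and 0.00027), and Upk3b with Gpm6a at r = 0.852. For the last 2 pairs r was 0.858 and 0.906 within the short arm, 0.900 and 0.814 within the long arm, and 0.727 and 0.825 after subtraction of group means. Of the 36 pairs, 23 had an adjusted permutation p under 0.05 within the short arm, but 1 did within the long arm (Msln with Upk1b) and 2 after subtraction of group means (Msln with Upk3b, and Krt8 with Krt18).

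Lrrn4 and Krt8 had the lowest r, 0.021 (permutation adjusted p = 0.926), and a rho of 0.014 (permutation adjusted p = 0.957). Lrrn4 with Krt18 was at r = 0.036, Gpm6a with Krt8 at 0.039 and Gpm6a with Krt18 at 0.132. In the long arm these 4 pairs had r from -0.248 to -0.160, and in the short arm from 0.210 to 0.407. Krt19 stood between the sets, with r = 0.737 to Krt8, 0.742 to Msln and 0.724 to Upk1b, but 0.373 to Lrrn4. Msln was past the adjusted threshold with all 8 other genes.

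**Figure D3:**
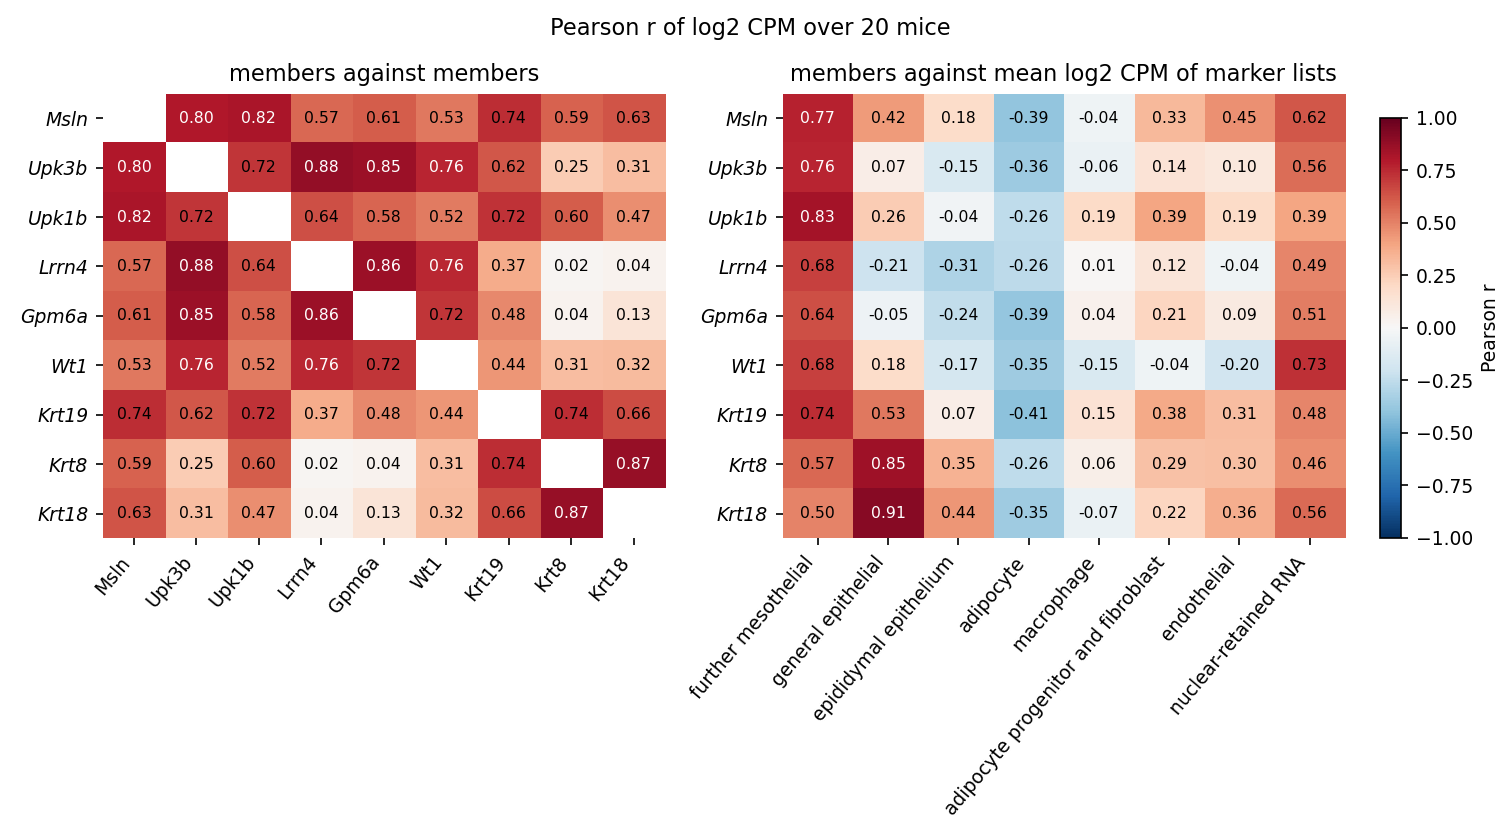
Pearson r of log2 CPM over the 20 mice, between the 9 genes (left) and between each gene and the mean log2 CPM of a marker list (right), with red for positive and blue for negative r. Upk3b, Lrrn4, Gpm6a and Wt1 have r of at least 0.717 with each other, and Krt8 and Krt18 have r of 0.850 and 0.912 with the general epithelial list, where Lrrn4 has -0.210.

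The genes were then set beside marker lists of the cells that epiAT or its neighbours could hold, as the mean log2 CPM of each list (11 lists, 99 relations, permutation p adjusted over them). The further mesothelial list had the highest r with Upk1b (0.831, rho = 0.771), Msln (0.768, rho = 0.684), Upk3b (0.758, rho = 0.565) and Krt19 (0.736, rho = 0.714), with permutation adjusted p of 0.000495, 0.00173, 0.00238 and 0.00380 for r. Without the 2 mice farthest from the median these 4 values were 0.733, 0.679, 0.470 and 0.672. The general epithelial list had the highest r with Krt18 (0.912, rho = 0.884, permutation adjusted p = 0.000495 for r) and Krt8 (0.850, rho = 0.815, permutation adjusted p = 0.00066 for r). Without the 2 farthest mice these 2 values were 0.823 and 0.712. Within the short arm they were 0.914 and 0.917, within the long arm 0.865 and 0.833. With Upk3b the general epithelial list had an r of 0.067, with Gpm6a -0.054 and with Lrrn4 -0.210. These values pooled opposite signs, 0.411, 0.3 and 0.194 within the short arm and -0.383, -0.583 and -0.599 within the long arm. No permutation adjusted p of these arm values was under 0.05. Within the short arm the further mesothelial list had r of 0.818 with Krt18 and 0.759 with Krt8, beside 0.75 with Msln (permutation adjusted p = 0.0405 for each). Within the long arm r was 0.357, 0.407 and 0.884.

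Counts of single mice, picked from the same data, are given for Krt18 and Upk3b. Their r was 0.309 over all 20 mice, 0.568 within the short arm and 0.022 within the long arm. Other keratin pairs were closer over all 20 mice, such as Krt18 with Msln (r = 0.626) and Krt8 with Upk1b (r = 0.604). The ratio of Krt18 to Upk3b counts was 0.758 in C replicate 1 (1288 and 1700 counts) and 0.904 in C replicate 2, the highest of 20 mice. It was 0.0429 in CCC replicate 2 (100 and 2330 counts) and 0.0482 in CCC replicate 1. However, C replicate 3 was at 0.152, CC_s replicate 1 at 0.0948 and CC_l replicate 2 at 0.895. The lowest ratio was 0.0404 in HHC replicate 1 (8 and 198 counts). The ratio of Lrrn4 to Upk3b counts stayed between 0.209 and 0.687 in all 20 mice. Epcam, an epithelial adhesion molecule, was at 194 CPM in C replicate 1 and 53.8 CPM in C replicate 2 but at 0.220 CPM in CCC replicate 2, whereas Nkain4 was highest in CCC replicate 2 at 60.8 CPM.

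**Figure D4:**
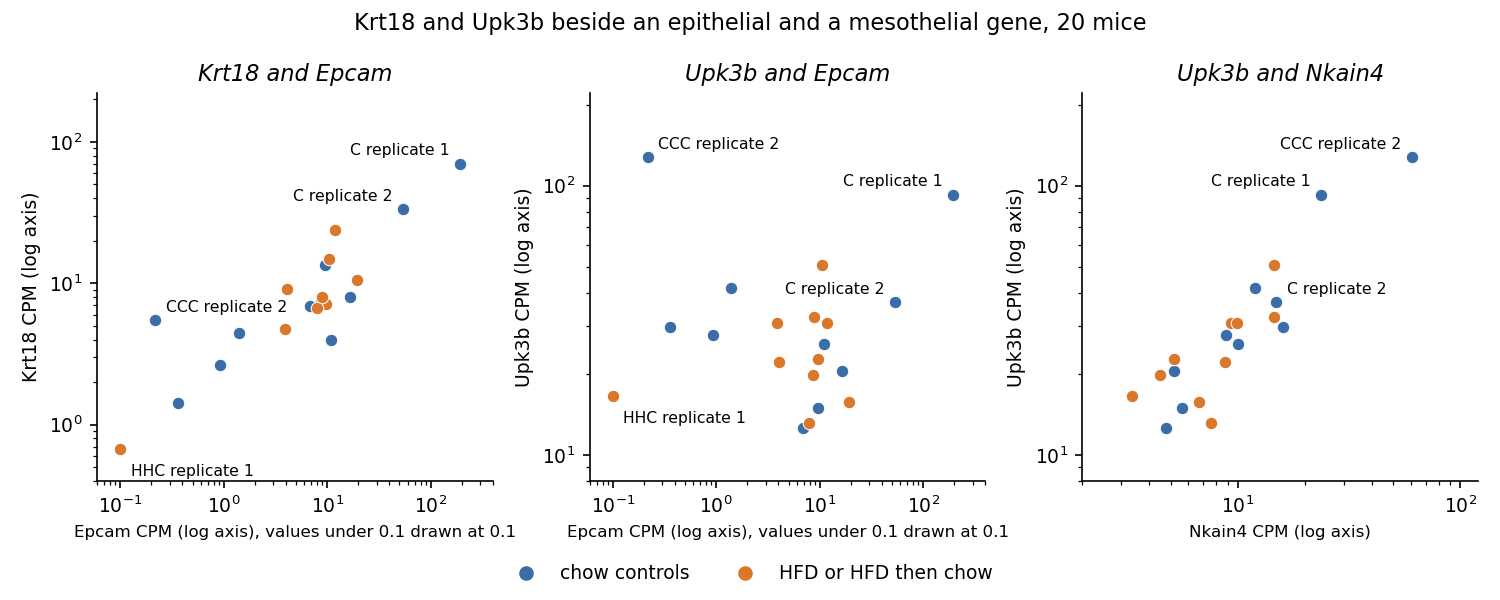
Each point is 1 of 20 mice, with CPM on log axes, for Krt18 against Epcam (left), Upk3b against Epcam (middle) and Upk3b against Nkain4 (right), chow controls in blue and other groups in orange. Epcam values under 0.1 CPM are drawn at 0.1. CCC replicate 2 lies at the top for Upk3b and Nkain4 but at 0.220 CPM for Epcam, and C replicate 1 is at the top for Krt18 and Epcam.

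Of the lists for other RNA, the nuclear-retained list had r = 0.733 with Wt1 (rho = 0.472, permutation adjusted p = 0.0058 for r) and 0.623 with Msln (rho = 0.463, permutation adjusted p = 0.027 for r), and 0.391 to 0.563 with the other 7 genes. With the adipocyte list r was between -0.407 and -0.255 for all 9 genes, and no permutation adjusted p was under 0.05. After subtraction of group means, r with that list was -0.900 for Wt1 (permutation adjusted p = 0.00792) and -0.610 to -0.127 for the other 8 genes, whose permutation adjusted p was not under 0.05. After the same subtraction, r with the spermatid list was 0.725 for Wt1 (permutation adjusted p = 0.0479). For the other 8 genes it was -0.056 to 0.488, with no permutation adjusted p under 0.05. With the macrophage list r over the 20 mice was between -0.155 and 0.189, and no permutation adjusted p was under 0.05, although macrophage genes were high in H and HH. After subtraction of group means it was 0.633 for Wt1 (permutation adjusted p = 0.0596) and -0.184 to 0.240 for the other 8 genes.

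By likeness to the mean z-score of the 9 genes over 20 mice, out of 16255 other protein-coding genes, the closest was Nkain4 (r = 0.880), followed by Ildr2 (0.858), Krt7 (0.855), Fmod (0.854), Bicd1 (0.842), Ptprz1 (0.841), Zfp950 (0.838), Nlgn1 (0.835), Msh3 and Cxadr (both 0.832). Krt7 encodes a type II keratin, Ildr2 an immunoglobulin-like domain receptor, Fmod the matrix proteoglycan fibromodulin and Cxadr the coxsackievirus and adenovirus receptor of cell junctions. At the other end stood Psmb10, a subunit of the immunoproteasome (-0.873), Rab5c, a small GTPase of early endosomes (-0.848), and Ywhaz, a 14-3-3 protein (-0.838). Of the further mesothelial genes, Nkain4 and Krt7 were ranked 1 and 3, Prg4 (0.745) 100 and Bnc1 (0.740) 112, whereas Aldh1a2 (0.054) and Gata6 (-0.009) did not follow the set. Calb2 (calretinin), which is also used as a mesothelial marker, was at 0 to 0.11 CPM and was not tested.

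Some counts could be shared with other genes. Of the 50-base words in the Krt8 exons, 29.7% also occurred in other genes, 26.9% in the pseudogene Krt8-ps, and Krt8 overlaps Gm36026 on the opposite strand. Gpm6a overlaps A230085B16Rik and Gm45262 to Gm45265. For the other 7 genes the share of such words was at most 2.88% (Msln), and no gene overlapped them. The values of Krt8 and Gpm6a are uncertain to that extent.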

How the data were processed

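RNA on GFP-tagged ribosomes was pulled down from frozen epiAT, converted to full-length cDNA with an oligo-dT primer and template switching, and sequenced. Per the labels, the authors used Trim Galore 0.6.6, HISAT2 2.2.1 (mm10) and Subread 2.0.1, and deposited raw read counts per gene, without normalization. The annotation, strand and pair settings of the counting are not given in the sources used here. Between 74.5% and 89.2% of counts were even, so an alternative halved them. Symbols were matched for 45143 genes (98%) and promoters are those of RefSeq.

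Counts were fitted with edgeR 4.0.16 in R 4.3.3 (filterByExpr, TMM, quasi-likelihood, all 20 libraries in 8 groups). Thresholds were the study's (nominal p under 0.01, absolute log2 fold change of at least 1), with Benjamini-Hochberg adjusted p over all tested genes beside them. CPM were counts scaled to the TMM-adjusted library size, log2 CPM had a prior count of 2, and SE was the fold change divided by the root of F. Correlations had two-sided permutation p from 100000 resamples. No 2 libraries were duplicates. Limits of 3 counts cover counting error only. The fit was tested on simulated data. Alternatives were DESeq2 1.42.0, RLE scaling, no filter, the likelihood ratio test, fits of the compared groups, a replicate block and leaving out mice. A covariate of nuclear-retained RNA and leaving out the 4 libraries highest in it were chosen after seeing the data. All 10 genes are named, list genes where they passed the thresholds or a sentence turns on them, and the 10 most and 3 least alike genes. Members and lists were chosen with earlier results of these data known.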

Additional observations from a re-analysis of the deposited data

Results flagged for a closer look

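In 5 cases the fold changes of a gene pointed in opposite directions in 2 comparisons, with no overlap between the mice of either comparison. Lrrn4 was at 0.69 in HH against CC_l but at -1.82 in HHC against CCC, a difference of 2.51 (SE 0.86, edgeR adjusted p = 0.166). Gpm6a was at 1.10 in the first of these and at -1.17 in the second, a difference of 2.27 (SE 0.92, edgeR adjusted p = 0.248). Between the lengths of HFD, Lrrn4 was at -1.46 in H against C and 0.69 in HH against CC_l, a difference of -2.15 (SE 0.78, edgeR adjusted p = 0.848). Gpm6a was at -1.90 in H against C and 1.10 in HH against CC_l, a difference of -3.01 (SE 0.85, edgeR adjusted p = 0.848). Between the weight-loss groups, Krt8 was at 1.65 in HC against CC_s and -1.14 in HHC against CCC, and this difference was not tested. Groups that did not overlap were found for 23.9% of all tested genes in H against C, 13.8% in HC against CC_s, 28.8% in HHC against CCC and 55.2% in HH against CC_l.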

How the results depend on the processing

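The limits were 2 or 3 mice a group, a biological coefficient of variation of 0.68 over all genes and single libraries that decided calls. Counts below are genes of the 9 past the thresholds, and alternatives that are not named gave counts within 1.5 times that of the report. The share of all tested genes past the thresholds moved too. In H against C it was 6.49% in the report, 7.24% with no filter and 11.2% with the RNA covariate. In HC against CC_s it was 1.74%, 5.12% with no filter and 1.52% in the compared groups. In HHC against CCC it was 3.12%, 3.68% with no filter and 1.38% in the compared groups. In CCC against CC_l it was 2.66%, 5.59% with no filter and 1.3% in the compared groups. In CC_s against C it was 2.45%, 1.98% in the compared groups and 0.895% with the RNA covariate. Without the 4 libraries C and CCC hold 1 mouse each, and no share is given for that fit. In H against C, leaving out 1 mouse at a time gave 1 to 4 genes (1 without C replicate 1, H replicate 1 or H replicate 2), no filter 7, the nuclear-retained RNA covariate 1 and leaving out the 4 libraries 0. In HC against CC_s, 0 to 1 genes passed without 1 mouse (1 without CC_s replicate 2), 2 with no filter, 2 in a fit of the compared groups and 1 without the 4 libraries. In HH against CC_l the count was 0 in every alternative run. In HHC against CCC, 0 to 3 genes passed without 1 mouse (3 without CCC replicate 1, 2 without HHC replicate 2, 0 without HHC replicate 1 or CCC replicate 2), 5 with no filter, and 0 with RLE, the compared groups, the block, halved counts, the covariate or without the 4 libraries. In CC_s against C, 0 to 4 passed without 1 mouse (0 without C replicate 1, 1 without CC_s replicate 1 or 3), 2 in the compared groups, and 0 with the covariate or without the 4 libraries. In CCC against CC_l, 0 to 5 passed without 1 mouse (5 without CCC replicate 1, 1 without CC_l replicate 1 or 2, 0 without CCC replicate 2), 6 with no filter, and 0 in the compared groups or without the 4 libraries. For the interactions, past an adjusted p of 0.05, H minus HC gave 2 with DESeq2, 2 with the likelihood ratio test and 5 with no filter, HH minus HHC 1 with no filter and 0 to 1 without 1 mouse (1 without CCC replicate 1), and H minus HH 1 with no filter. The shares of all tested genes past that adjusted p in these alternatives for the interactions are not given here. Pairs of genes with an adjusted p under 0.05 were 25 of 36 over all mice, 23 within the short arm, 1 within the long arm and 2 after subtraction of group means. The cause of these changes was not tested.

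Fold changes that changed sign without the 4 libraries were, in H against C, Msln 1.01, Upk1b 0.10, Krt19 1.58, Krt8 0.73 and Krt18 1.22, and in HC against CC_s, Upk3b -0.11, Wt1 -0.15 and Lrrn4 -0.0364. Krt18 in HHC against CCC was at 1.00 without them and at 1.70 with the covariate. Without 1 mouse, Krt19 ran from -2.02 to 0.43 in H against C. In HC against CC_s, Msln ran from -0.0048 to 0.56, Upk3b from -0.0545 to 0.77, Wt1 from -0.10 to 1.08, Lrrn4 from -0.15 to 0.63 and Gpm6a from -0.54 to 0.22. In HH against CC_l, Msln ran from -0.36 to 0.66, Upk3b from -0.42 to 0.89 and Upk1b from -0.0048 to 1.49, and in HHC against CCC, Krt18 ran from -2.36 to 0.93. The cause was not tested.

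Whether replicate numbers pair the mice could not be decided. In deviations from group means, same-numbered mice had r from -0.586 to 0.282 in the short arm, and other pairs from -0.371 to 0.587. In the long arm r was -0.26 to 0.115 and -0.115 to 0.26. There the 2 mice of a group deviate equally in opposite directions, so these ranges mirror each other by construction. With the replicate block, 2 genes passed in H against C, 0 in HC against CC_s, HH against CC_l and HHC against CCC, 3 in CC_s against C and 2 in CCC against CC_l, and Msln was at -0.0637 in HH against CC_l. RLE moved the median of all genes by over 0.1 in CC_s against C (-0.32 beside -0.17). In HHC against CCC, 96 of all genes passed upward and 573 downward with TMM, and 156 and 421 with RLE.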
